A study of Mus musculus with 2 samples.

Results

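The genes described are 7 miRNA genes, Mir132, Mir212, Mir133b, Mir206, Mir7-1, Mir7-2 and Mir7b, out of 1973 miRNA loci with counts in midbrain at embryonic day 14.5. They were chosen by symbol, as miRNAs with a literature in midbrain dopamine neurons plus Mir206, the cluster partner of Mir133b, and all 7 were found in both tables by gene identifier. The RNA came from B6NCrl mice at embryonic day 14.5, with no treatment or mutation in the labels, and the molecules sequenced were below 30 nt. The series has 1 group of 2 biological replicates and therefore no contrast between conditions. Each replicate is described as a single whole midbrain, so dopamine neurons were an unmeasured part of the material. The labels give both replicates the same pup and pregnancy number and the same donor identifier, with different collection days, and give the sex as pooled. Whether a library holds a single embryo or a pool is therefore not settled. If the libraries do not come from separate animals, the SDs here measure technical spread.

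MiR-132 and miR-212 are encoded by neighbouring genes whose transcription in neurons is driven by activity and neurotrophins through the factor CREB, and miR-132 is known for promoting dendrite growth and for targeting the transcript of Nurr1, a factor that dopamine neurons need. MiR-133b and miR-206 are best known from skeletal muscle, and miR-133b was described in a feedback loop with Pitx3, a transcription factor of midbrain dopamine neurons. MiR-7 is abundant in neurons and neuroendocrine cells, represses alpha-synuclein, and is bound by the circular RNA Cdr1as. A miRNA finds its targets mainly through its seed, bases 2 to 8 from the 5′ end.

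The arms of each hairpin that are best known as the active product are shown to let the seeds be compared, with the seed in capitals. The sequences are RefSeq entries of build GRCm38.p6, in which all 7 genes were matched by symbol.
miR-132-3p: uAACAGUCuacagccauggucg
miR-212-3p: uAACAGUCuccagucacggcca
miR-133b-3p: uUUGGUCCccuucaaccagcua
miR-206-3p: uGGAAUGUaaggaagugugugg
miR-7a-5p: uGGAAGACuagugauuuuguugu
miR-7b-5p: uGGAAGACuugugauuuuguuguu

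MiR-132-3p and miR-212-3p share their seed and 17 of 22 bases, and differ by A10C, C14U, U17C, U20C and G22A (the miR-132-3p base first, positions from 1 at the 5′ end). MiR-7a-5p and miR-7b-5p share their seed and 22 of 23 compared bases, and differ by A10U, with the miR-7a-5p base first. MiR-133b-3p and miR-206-3p come from the same cluster and have different seeds, UUGGUCC and GGAAUGU.

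The miR-7a-5p product is made by Mir7-1 and by Mir7-2, and the stretch that these hairpins share decides which reads can be told apart. It is shown in capitals within each hairpin.
Mir7-1: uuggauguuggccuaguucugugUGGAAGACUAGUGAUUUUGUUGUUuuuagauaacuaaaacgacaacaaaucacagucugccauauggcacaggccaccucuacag
Mir7-2: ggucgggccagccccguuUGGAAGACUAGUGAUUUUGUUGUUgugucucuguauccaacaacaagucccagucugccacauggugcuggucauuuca

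The shared stretch is 24 nt long and holds the whole 23 nt of miR-7a-5p. A read that lies within it matches both genes, and the tables keep reads that mapped to several places in a class with no gene. The opposite arms, miR-7a-1-3p and miR-7a-2-3p, have no exact copy in another of the 2202 GENCODE miRNA hairpins searched, and differ from each other by A7G, A10C and U21C, with the miR-7a-1-3p base first. The counts do not separate the arms of a hairpin, so which arm gave the reads of Mir7-1 and Mir7-2 was not measured. Mir133b shares 21 nt with Mir133a-1 and Mir133a-2, and these 21 nt are part of miR-133b-3p, whose length is 22 nt. The other 4 genes share at most 14 nt with any hairpin elsewhere: 11 nt for Mir132, 12 nt for Mir212, 13 nt for Mir206 and 14 nt for Mir7b. Of 342 detected loci with a RefSeq entry, 13.2% had an arm with an exact copy in another hairpin, and of the 7 genes only Mir7-1 and Mir7-2 did.

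Sense reads, those on the annotated strand, numbered 7302633 in replicate 1 and 3966727 in replicate 2. The authors' raw counts were scaled to CPM by the total of sense reads in each library, so that a single read was worth 0.137 CPM in the deeper library and 0.252 CPM in the other. A count of 0 would still allow 3 reads, equal to 0.411 and 0.756 CPM. Of 10 general brain loci with a count, 9 were detected (at least 10 sense reads in each library), where 20.1% of all 1973 loci were. Mir149 was highest at 17513 ± 704 CPM and Mir129-1 the lowest detected at 63.1 ± 3.32 CPM (SD, n = 2, as for every mean ± SD of levels and ratios here). The lists were chosen with earlier results of these data known, so the numbers detected do not check the tissue. The brain locus not detected was Mir9-2, with 25 sense reads in replicate 1 and 3 in replicate 2. The counts of Mir9-2 and Mir129-1 may lack reads shared with other copies of these genes. The HOX clusters are active behind the midbrain, and of their 6 miRNA loci 4 were detected, from 661 ± 172 CPM for Mir10a to 23.3 ± 8.75 CPM for Mir196b. The part of tissue from behind the midbrain in the results below was not tested.

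Of the 7 genes, 6 were detected, meaning at least 10 sense reads in each library, and the exception was Mir133b. Over all 1973 loci 20.1% were detected, and 1227 loci had no read in either library. Together the 7 genes held 3229 ± 261 CPM. The miR-7 genes took 72.6% ± 1.61 of these reads, Mir132 with Mir212 26.6% ± 1.51 and Mir133b with Mir206 0.839% ± 0.0985. Shared reads of Mir7-1, Mir7-2 and Mir133b that were called as mapping to several places are missing from this total and these shares. In a whole midbrain, fewer cells of a type and less RNA per cell cannot be told apart.

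**Figure D1:**
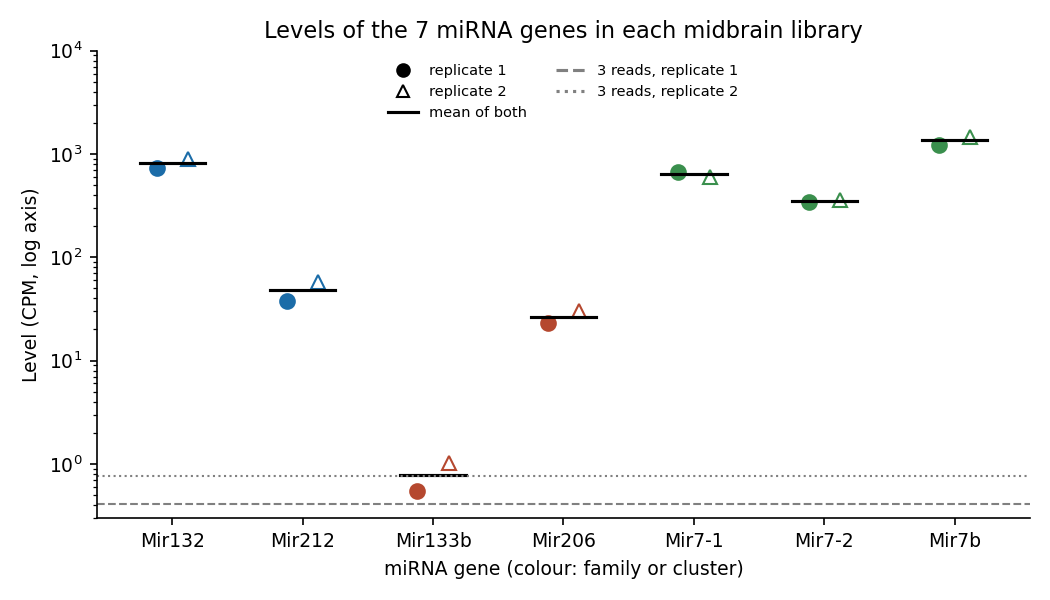
Level of each of the 7 miRNA genes in CPM on a log axis, with replicate 1 as filled circles, replicate 2 as open triangles, the mean as a bar and the level of 3 reads in each library as grey lines. On assigned reads Mir7b stood highest at 1354 CPM and Mir133b, at 0.778 CPM, stood next to the lines of 3 reads.

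On assigned reads the miR-7 family was led by Mir7b, which had 8994 sense reads (1232 CPM) in replicate 1 and 5859 reads (1477 CPM) in replicate 2. Mir7-1 had 4895 reads (670 CPM) and 2403 reads (606 CPM), and Mir7-2 had 2507 reads (343 CPM) and 1415 reads (357 CPM). The 3 genes kept the same order in both libraries, and their ranges did not overlap. A full-length miR-7a-5p read matches both Mir7-1 and Mir7-2, and reads called as mapping to several places count for neither gene. The order and the family shares therefore describe assigned reads and do not rank the miR-7 products. Mir7b is a plus-strand gene outside any other gene, on chromosome 17 from 56242988 to 56243098 (mm10, as for all positions here). It averaged 1354 ± 174 CPM and took 57.7% ± 4.02 of the reads of the family. Mir7-1, on the minus strand of chromosome 13 from 58392779 to 58392886, lies in an intron of Hnrnpk, a gene for a widely expressed RNA-binding protein. It averaged 638 ± 45.6 CPM and took 27.3% ± 3.55 of the family. Mir7-2, on the plus strand of chromosome 7 from 78888277 to 78888373, lies outside other genes, and Aen is the nearest gene downstream on that strand, 7480 bp away. It averaged 350.0 ± 9.49 CPM and took 15.0% ± 0.472 of the family.

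Mir7-1 exceeded Mir7-2 1.83 ± 0.180 times, with ratios of 1.95 in replicate 1 and 1.70 in replicate 2. Both genes were compared through the reads that the tables assigned to them, which leave out any read called as mapping to several places, and such reads made up 36.2% and 36.9% of the libraries. What share of that class was miR-7a-5p is not known from these tables. The counts of Mir7-1 and Mir7-2 are therefore uncertain, and so is their standing against Mir7b, whose 5p arm is told apart by the base at position 10. On the counts as deposited, Mir7b exceeded Mir7-1 2.14 ± 0.425 times and Mir7-2 3.86 ± 0.391 times. The ratio of Mir7b to Mir7-1 was 1.84 in replicate 1 and 2.44 in replicate 2, with exact Clopper-Pearson 95% intervals of 1.77 to 1.90 and of 2.32 to 2.56. These intervals lie apart, so the balance of Mir7b and Mir7-1 differed between the libraries by more than counting error. All intervals and the level of 3 reads cover counting error only, since PCR copies of a molecule are counted as separate reads.

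In the cluster of Mir132 and Mir212 nearly all reads fell on Mir132. Mir132 had 5391 sense reads (738 CPM) in replicate 1 and 3511 reads (885 CPM) in replicate 2. Mir212 had 277 reads (37.9 CPM) and 229 reads (57.7 CPM). The lowest value of Mir132 was far above the highest value of Mir212. The genes lie on chromosome 11 on the plus strand, Mir212 from 75173388 to 75173478 and Mir132 from 75173682 to 75173747, with 203 bp between the hairpins. Both lie in an intron of the noncoding gene 1700016P03Rik. Mir132 took 94.5% ± 0.874 of the reads of the pair and averaged 812 ± 104 CPM, and Mir212 took 5.51% ± 0.874 and averaged 47.8 ± 14.0 CPM. The ratio of Mir132 to Mir212 was 19.5 in replicate 1 (exact 95% interval 17.2 to 22.0) and 15.3 in replicate 2 (13.4 to 17.6). Its mean was 17.4 ± 2.92. The intervals overlap, which does not show that the balance was equal. After TMM scaling of library sizes, the log2 ratio of replicate 2 to replicate 1 was 0.17 for Mir132 (0.11 to 0.23). For Mir212 it was 0.51 (0.25 to 0.77). The intervals of these log2 ratios lie apart, so the balance of Mir132 and Mir212 differed between the libraries by more than counting error. Neither hairpin shares more than 12 nt with a hairpin elsewhere. How efficiently each sequence was captured in library preparation was not measured, and this applies to every comparison between genes here.

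**Figure D2:**
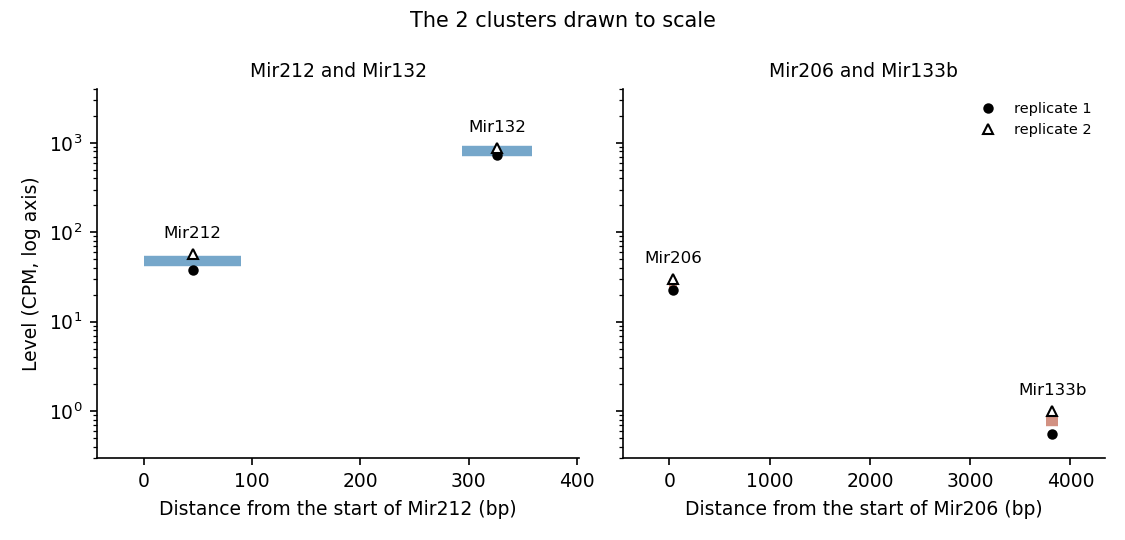
The Mir212 and Mir132 cluster (left) and the Mir206 and Mir133b cluster (right), each on its own distance axis in bp. The coloured bar spans each hairpin at its mean level in CPM on a log axis, and symbols give the replicates. The second hairpin of the left cluster, Mir132, was higher than the first, and that of the right cluster, Mir133b, was lower.

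In the cluster of Mir133b and Mir206, only Mir133b was close to the limit of these libraries. Mir206 had 167 sense reads (22.9 CPM) in replicate 1 and 119 reads (30.0 CPM) in replicate 2. Mir133b had 4 reads in each library, 0.548 CPM in replicate 1 (exact 95% interval 0.149 to 1.40) and 1.01 CPM in replicate 2 (0.275 to 2.58). Mir206 was thus read in both libraries, at a low level, and Mir133b lay 1 read above the count that 0 would allow. The pair lies on chromosome 1 on the plus strand, Mir206 from 20679010 to 20679082 and Mir133b from 20682769 to 20682887, with 3686 bp between the hairpins, and both overlap exons of the lincRNA gene Gm28653. Mir206 averaged 26.4 ± 5.04 CPM and took 97.2% ± 0.645 of the reads of the pair. The ratio of Mir206 to Mir133b was 41.8 in replicate 1 (exact 95% interval 16.0 to 155) and 29.8 in replicate 2 (11.3 to 111), so its size is poorly known. It also rests on a Mir133b count from which reads of the 21 nt shared with the Mir133a genes may be missing, and this was not tested. Mir133a-1 and Mir133a-2 had no sense read in either library.

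The muscle miRNAs that accompany miR-133b and miR-206 in skeletal and heart muscle had few assigned reads as well. Of 8 loci with a count, 3 were detected: Mir208b, from a heart and slow-muscle myosin gene, was highest at 8.94 ± 1.61 CPM, Mir1b had 6.23 ± 0.0992 CPM and Mir499 was the lowest detected at 3.90 ± 1.26 CPM. Mir206 at 26.4 CPM stood above each of these. Mir133a-1, Mir133a-2 and Mir133c had no read, Mir1a-1 had 1 read in replicate 1 and none in replicate 2, and Mir208a had 2 reads in each library. Of these 8 loci 4 share at least 20 nt with another hairpin: Mir133a-1 and Mir133a-2 share 31 nt with each other, and Mir1a-1 and Mir1b share 28 nt. Their counts, 0 included, do not show a low level, since shared reads may be missing. The list summed to 19.5 ± 3.03 CPM, with 17.4 CPM in the first library and 21.7 CPM in the second. The part of muscle tissue in the level of Mir206 was not tested.

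By mean level the order was Mir7b, Mir132, Mir7-1, Mir7-2, Mir212, Mir206 and Mir133b, and on the counts as deposited it was the same in both libraries. The difference between neighbours in this order exceeded the larger SD of the pair in 6 of 6 cases, and their ranges did not overlap. The genes were sorted by these same means, which favours such separation. The SD does not cover shared reads missing from Mir7-1, Mir7-2 and Mir133b. No test was made on 2 replicates. The closest pair was Mir132 and Mir7-1, where Mir132 exceeded Mir7-1 1.10 times in replicate 1 and 1.46 times in replicate 2. The order of this pair is uncertain. A full-length miR-7a-5p read matches both Mir7-1 and Mir7-2, and reads called as mapping to several places are missing from both counts. The ratio of Mir7b to Mir132 was 1.67 in each library, and that of Mir212 to Mir206 was 1.66 in replicate 1 and 1.92 in replicate 2.

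**Figure D3:**
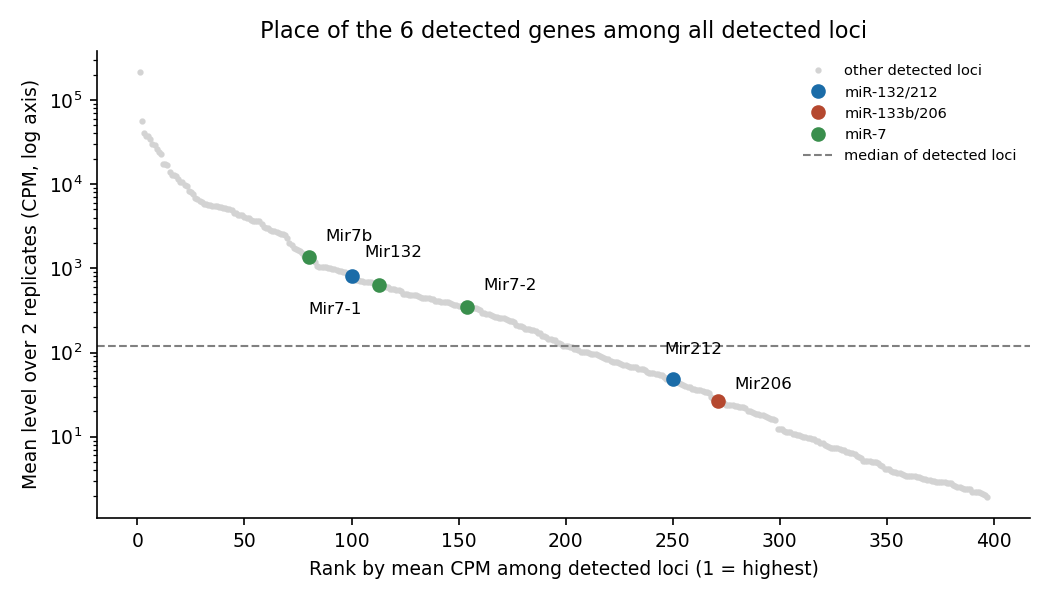
Mean level in CPM on a log axis against rank for the 397 detected loci (grey), with 6 of the 7 genes in colour and the median of detected loci dashed. Mir7b, Mir132, Mir7-1 and Mir7-2 lie above the median of 120 CPM, and Mir212 and Mir206 below it.

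Among the 397 detected loci, whose median was 120 CPM, Mir7b ranked in place 80, Mir132 in place 100, Mir7-1 in place 113 and Mir7-2 in place 154. Mir212 and Mir206 ranked in places 250 and 271. These places and the median rest on assigned reads. Of 342 detected loci with a RefSeq entry, 13.2% had an exactly copied arm, and their counts may lack shared reads. Mir7b stood 11.3 times above the median and Mir132 6.76 times, whereas Mir212 reached 0.399 and Mir206 0.220 of it. Single places are not resolved: the loci directly above and below each detected gene differed from it by less than the larger SD of the pair in 12 of 12 cases. Mir7b lay between Mir182 (1399 ± 75.6 CPM) and Mir425 (1328 ± 191 CPM), and Mir132 between Mir101a (824 ± 126 CPM) and Mir128-2 (734 ± 89.7 CPM). Mir7-1 lay between Mir16-2 (648 ± 167 CPM) and Mir376c (637 ± 227 CPM), and Mir7-2 between Mir338 (351 ± 78.0 CPM) and Mir219a-1 (348 ± 16.4 CPM). Mir212 lay between Mir3102 (48.1 ± 2.72 CPM) and Mir30c-2 (47.8 ± 2.95 CPM), and Mir206 between Mir1224 (28.1 ± 7.63 CPM) and Mir3093 (25.8 ± 4.89 CPM).

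Other miRNAs studied in midbrain dopamine neurons or with genes of Parkinson disease covered a wider range. Of the 15 loci of this list 14 were detected, from Mir30e at 29989 ± 1722 CPM to Mir124a-1 at 6.66 ± 1.23 CPM. Mir153, which like miR-7 is known to target alpha-synuclein, had 5876 ± 843 CPM, and Mir135a-2, whose product acts on Wnt signalling and Lmx1b in the dopamine progenitor field, had 401 ± 52.5 CPM. The Mir124a and Mir135a loci are sets of gene copies, and reads shared between copies may be missing from their counts. How many such reads were lost was not measured, so these counts do not show a low level of the products. The median of the 7 genes was 350.0 CPM, against 205 CPM for this list, 635 CPM for 10 general brain loci, 32.6 CPM for 6 HOX-cluster loci and 0.229 CPM for 8 muscle partners. The median of all 1973 loci was 0 CPM. Each list holds loci with copies, whose counts may lack shared reads, so the medians do not compare the levels of the products.

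**Figure D4:**
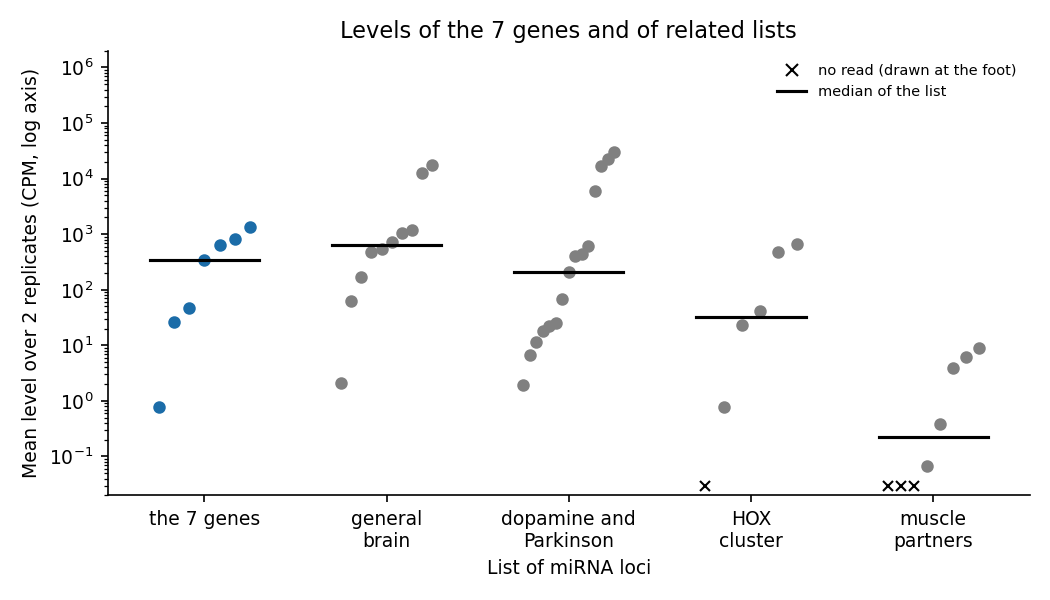
Mean level over both replicates in CPM on a log axis for the 7 genes (blue) and for the loci of 4 lists (grey), with list medians as bars and loci without a read as crosses at the foot. The 7 genes span from 0.778 to 1354 CPM, and the muscle partners lie at or below 8.94 CPM. Counts of loci with copies may lack shared reads.

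None of the 6 detected genes had a ratio past 1.5-fold between the libraries, and 16.6% of the 397 detected loci did. Whether 6 genes differ from that share was not tested. The counting intervals of Mir212 and Mir206 reach past 1.5-fold, to 1.70 and 1.56. The ratio of replicate 2 to replicate 1, after TMM scaling of the library sizes, compares these 2 libraries and not conditions. In log2 it was 0.17 for Mir132 (exact 95% interval 0.11 to 0.23), 0.51 for Mir212 (0.25 to 0.77) and 0.17 for Mir7b (0.12 to 0.21). Mir7-1 stood at -0.24 (-0.31 to -0.17), Mir7-2 at -0.04 (-0.13 to 0.05) and Mir206 at 0.30 (-0.05 to 0.64). Beyond counting error, Mir132, Mir212 and Mir7b were thus higher in replicate 2, and Mir7-1 was lower in replicate 2. Loci of other tissue also differed between the libraries. In the same log2 ratio the detected HOX-cluster loci Mir10a, Mir10b, Mir196b and Mir615 stood at 0.44, 0.29, 0.69 and 0.67, and the 6 loci of that list summed to 1001 CPM in the first library and 1404 CPM in the second. The blood cell miRNAs Mir451a and Mir223 stood at -1.95 and -3.21, and the mesenchymal Mir214 at -1.92. These were picked for their large shifts, and loci of such tissue were not uniform. Among blood cell loci Mir144 stood at -0.70, Mir150 at -0.53 and Mir486 at 0.04. Mir143 and Mir145a of the vessel wall stood at -0.65 and -0.60, and the mesenchymal Mir199b at -4.31. The part of such differences in tissue content in the shifts of Mir132, Mir212, Mir7b and Mir7-1 was not tested. Shifts of their size were common: 65.2% of detected loci had a larger shift than Mir132, 47.4% than Mir7-1 and 19.9% than Mir212. Over the detected loci edgeR estimated a common biological coefficient of variation of 0.219. With plain totals in place of TMM, the ratio of Mir212 was 0.61 in log2, past 1.5-fold, and Mir7-2 changed sign, to 0.055.

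**Figure D5:**
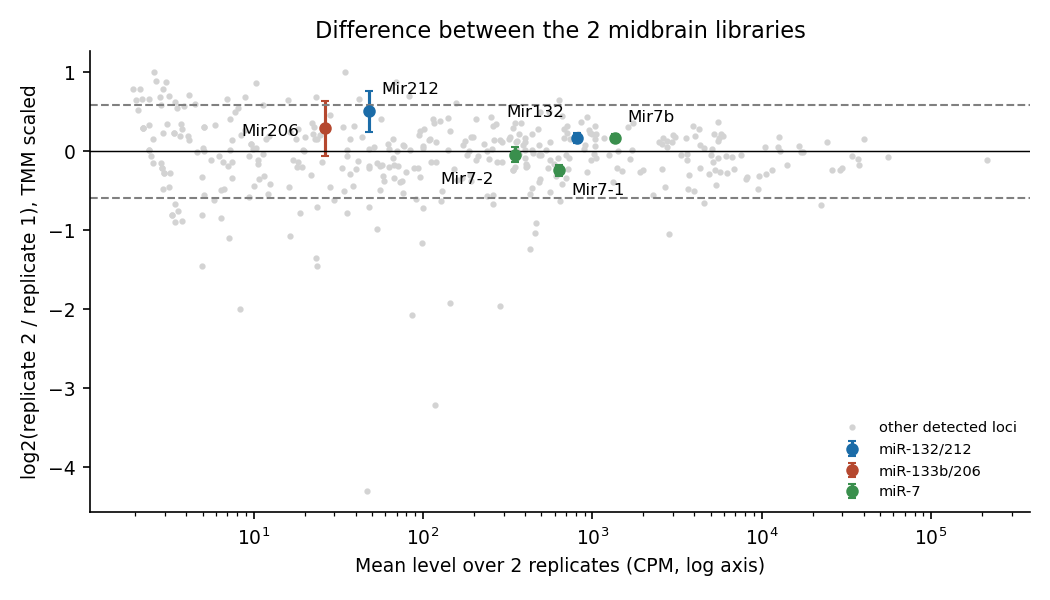
Log2 ratio of replicate 2 to replicate 1 after TMM scaling against mean level in CPM (log axis) for detected loci (grey) and 6 of the 7 genes (colour, with exact 95% intervals of counting error). Dashed lines mark 1.5-fold, and the points of all 6 genes lie between them, with Mir212 nearest to the upper line at 0.51. The intervals of Mir212 and Mir206 cross that line.

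Reads of the 7 genes came from the annotated strand. On the opposite strand Mir212 had 1 read in replicate 2, and the other 6 genes had 0 reads in both libraries.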

How the data were processed

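Small RNA was sequenced from 2 midbrain samples of 1 group. Per the labels and the text deposited with each library, the authors' files hold raw counts per miRNA gene on assembly mm10 with annotation M4. Aligner and counting tool were not given in the sources used here. Reads outside genes (unmapped, mapping to several places, or in no miRNA gene) stayed out of library totals; they made up 58.3% and 57.7% of all reads in replicates 1 and 2.

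Gene identifiers, with the version dropped, were matched to GENCODE M21 of the same assembly (1894 of 1973 loci). Sense counts were scaled to CPM on the total of sense reads. Detection required 10 reads in each library. Ratios between the libraries used TMM factors from edgeR 4.0.16, with exact binomial intervals from scipy 1.17.1; DESeq2 1.42.0 size factors were an alternative. Shared stretches were searched on both strands of GENCODE M21 hairpins that do not overlap the gene; copies outside annotated hairpins were not searched. With 1 group no test between conditions was made.

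The members and lists were chosen with earlier results of these data known. Named loci were the 7 genes, the highest and lowest detected locus of each list, and the loci next in level to each detected gene; other loci were named after their values were seen.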

Additional observations from a re-analysis of the deposited data

How the results depend on the processing

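With all reads of a library as the denominator, the mean levels were 335 CPM for Mir132, 19.7 for Mir212, 0.321 for Mir133b, 10.9 for Mir206, 263 for Mir7-1, 144 for Mir7-2 and 558 for Mir7b. Without Mir99a, the most abundant locus, in the total, they were 1033 CPM for Mir132, 33.6 for Mir206, 812 for Mir7-1, 445 for Mir7-2 and 1724 for Mir7b. Both follow from the construction of the denominator and leave ratios within a library as they were. Plain totals put the median of the 397 log2 ratios at 0.09. With them the ratio of replicate 2 to replicate 1 was 0.26 in log2 for Mir132, -0.15 for Mir7-1, 0.055 for Mir7-2 and 0.26 for Mir7b. Of the 66 loci past 1.5-fold, 28 were higher and 38 lower in replicate 2 with TMM, against 36 and 30 with plain totals. Without a filter 234 of 640 loci with a read in each library passed 1.5-fold, against 66 of 397. Of 62 alternatives that kept both replicates, 45 left the value within its replicate SD, its counting interval or 1.5 times the count, among them both strands. Some of these could hardly move. Only Mir212 had a read on the opposite strand, and the number of genes detected could rise only from 6 to 7. The 45 is therefore not a measure of stability. Leaving out 1 of 2 replicates cannot move a mean past its SD, so it says nothing of stability; it gives the values of single libraries in the report. With a minimum of 3 reads Mir133b was also detected, which made 7 of 7. No paired analysis was possible because there is 1 group. Depth limits Mir133b, at 4 reads a library, and the copies limit Mir7-1, Mir7-2 and Mir133b.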
